A study of Homo sapiens with 9 samples.

Results

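Vorinostat, called SAHA in the labels, was compared with its solvent DMSO by RNA sequencing of DU145 cells. DU145 is an established human prostate carcinoma line, labelled wild type in every sample, so the values describe 1 line in culture. Treatment lasted 6 days, with fresh medium every day. Of the 9 libraries of the series, 3 came from cells given SAHA at 500 nM, 3 from cells given DMSO alone and 3 from cells given H93 at 20 µM, and both compounds had been dissolved in DMSO. The labels write these doses with a lower-case m, and they are read here as nanomolar and micromolar. The series title presents H93 as aimed at UHRF1, a protein that brings the maintenance DNA methyltransferase to newly copied DNA, and the design names SAHA and DMSO as its controls. The comparison took every gene with at least 1 FPKM (fragments per kilobase of transcript, scaled to the size of the library) in at least 3 of the 9 libraries, which kept 11525 of the 16772 genes in the table and left out 5247. Differences are given as SAHA minus DMSO on the log2(FPKM + 1) scale, on which 1 is a doubling for well expressed genes and less than the true change for genes near 0. A gene is said to rise or fall where its adjusted p in limma, with Benjamini-Hochberg adjustment over all 11525 kept genes, was under 0.05, and a 2-fold call needed an absolute log2 difference of at least 1 as well. Values are FPKM, as the 3 libraries in replicate order or as mean ± SD with n = 3.

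Histone deacetylases remove acetyl groups from lysines in histone tails and in many other proteins. HDAC1 and HDAC2 are the catalytic subunits of the corepressor complexes SIN3, NuRD and CoREST, and HDAC3 is that of NCOR, while other members of the family act elsewhere, in part in the cytoplasm. SAHA is a hydroxamic acid that binds the zinc ion in the catalytic pocket of these enzymes, while the NAD-dependent sirtuins have no such zinc in their active site. Acetylated histones are bound by bromodomain proteins and are a mark of accessible chromatin, yet inhibitors of this class are known to lower many transcripts as well as to raise others. CDKN1A, the cell cycle inhibitor p21, is their best known responder.

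The 6 libraries compared were alike in scale. They held between 348656 and 355741 FPKM in all, and steps in the low values put every library of the series at between 0.875 and 1 of the deepest. The absolute depth was unknown. Pearson correlations of log2 values across genes were 0.9976 to 0.9983 for libraries of the same group and 0.9821 to 0.9834 between DMSO and SAHA. No library stood apart. Whether the replicates came from different cultures is not in the labels, and the p-values cover no more than the scatter of these libraries, which may be technical. Epithelial keratins marked the line, with KRT8 at 684, 664 and 681 in DMSO and 704, 705 and 734 in SAHA.

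SAHA moved many genes by a little and few genes by much. At adjusted p alone 6780 genes passed, 58.8% of those tested, of which 3159 (27.4%) were higher in SAHA and 3621 (31.4%) lower. Only 129 genes, 1.12%, met the 2-fold call, 86 higher (0.746%) and 43 lower (0.373%). The median absolute difference of the genes that passed was 0.24, and 86.6% of them lay under 0.5. Over all kept genes the median difference was -0.01, the quartiles were -0.16 and 0.13, and the 5th and 95th percentiles were -0.43 and 0.47. The DMSO and SAHA libraries did not overlap for 7384 genes (64.1%), of which 3423 (29.7%) were higher in SAHA and 3961 (34.4%) lower. The counts of the gene groups that follow are to be read against these shares, and their medians against -0.01. List members that the filter left out reached 1 FPKM in fewer than 3 of the 9 libraries, and some listed genes were not analysed here. A gene under 1 FPKM in every library of 1 group was kept through other libraries, which favours a difference without requiring it. This holds for rises and equally for falls under 1 FPKM in every SAHA library, such as IFIT3, RCOR2, TXNIP, NAPSA and RAMP1. Adjusted p-values of such genes and counts over kept members are therefore descriptions. No list was tested as a set. Of the genes named with their values and said to rise or fall, HDAC8 and SMIM11A are those whose DMSO and SAHA libraries overlapped.

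The 2-fold rises were spread over the range of expression. When kept genes were ranked by mean FPKM and split in 4 equal parts, the rises numbered 25, 26, 19 and 16 from the lowest part to the highest, and the 2-fold falls 15, 16, 7 and 5. Gene length on the chromosome went with direction at the adjusted p mainly in the longest genes. In the shortest 2880 genes, which span up to 12352 bases, 25.3% were higher and 35.1% lower. In the parts between, 27.0% and 25.5% were higher and 32.0% were lower in each. In the longest 2880, from 71010 bases upward, 31.8% were higher and 26.5% lower. From the shortest part to the longest, the 2-fold rises numbered 38, 19, 9 and 20 and the 2-fold falls 17, 8, 9 and 9. The part of length in the differences of single genes was not tested.

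Genes at the thresholds show what the filter and the call do. ZMYND10 and ST20-MTHFS just entered, with the value of their deciding library rounding to 1 FPKM, while ZNF425 and MFSD2B stayed out at 0.999 in theirs. RAMP1, a receptor activity-modifying protein, fell just past the 2-fold line from 2.13 ± 0.412 to 0.557 ± 0.161, and SERINC2 rose just past it from 16.4 ± 1.12 to 33.9 ± 2.23. The semaphorin and VEGF co-receptor gene NRP1 fell from 24.1 ± 0.581 to 11.6 ± 0.44 and stayed just short of the line, as did the rise of LOC105372440, an uncharacterised locus, at 0.685, 0.509 and 0 in DMSO and 1.45, 2.35 and 1.46 in SAHA.

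**Figure D1:**
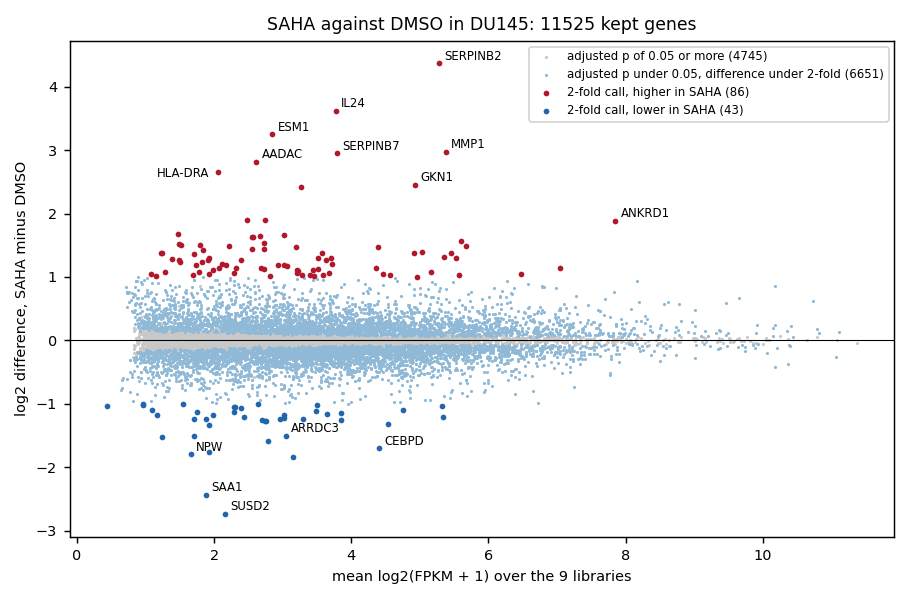
Log2 difference between SAHA and DMSO (vertical axis) against mean log2(FPKM + 1) over the 9 libraries (horizontal axis), 1 point per kept gene. Grey points did not pass an adjusted p of 0.05, light blue points passed it without a 2-fold difference, and the 86 red and 43 dark blue points are the 2-fold calls; SERPINB2 lies highest at 4.37 and SUSD2 lowest at -2.74.

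The largest rises included genes for a protease inhibitor, a cytokine and a collagenase. SERPINB2, plasminogen activator inhibitor type 2, stood at 3.59, 3.75 and 3.72 in DMSO and 93.5, 101 and 93.5 in SAHA (log2 difference 4.37, SE 0.0337, limma adjusted p = 2.92e-16). IL24, a cytokine of the IL-10 family, stood at 1.49, 1.17 and 1.44 in DMSO and 28.9, 26.3 and 29.3 in SAHA. MMP1, the interstitial collagenase, gave 8.21, 8.87 and 8.12 in DMSO and 69.4, 75.4 and 73.6 in SAHA. The largest rises and falls were taken among 2-fold calls whose groups did not overlap, so the lack of overlap was set by the choice. ESM1, which encodes the secreted proteoglycan endocan, went from 0.346, 0.358 and 0.198 in DMSO to 10.9, 11.8 and 11.2 in SAHA (log2 difference 3.25, SE 0.0533, limma adjusted p = 5.16e-13). ESM1 passed the filter only through libraries other than DMSO, so its adjusted p is a description. SERPINB7, a serpin of the same cluster as SERPINB2, went from 2.23, 1.74 and 2.68 to 25.6, 23.7 and 21.7. GKN1, a protein known from the gastric mucosa, went from 7.44, 8.82 and 6.9 to 47.7, 45.5 and 46.5. None of these groups overlapped, as the choice of genes required.

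The 15 largest rises held 9 further genes. The esterase gene AADAC rose from 0.493 ± 0.0622 to 9.48 ± 0.59 and, like ESM1, passed the filter through libraries other than DMSO. KRTAP2-3, a keratin-associated protein of hair with close paralogues in its cluster, rose from 1.27 ± 0.0888 to 11.1 ± 0.188 and is uncertain for that reason. SLAMF7, a receptor best known from plasma cells and natural killer cells, rose from 1.24 ± 0.038 to 7.38 ± 0.42, and GPSM3, a regulator of G protein signalling, rose from 1.72 ± 0.20 to 9.18 ± 1.18. ANKRD1, a transcriptional cofactor and a common readout of YAP activity, was the most abundant of the 15, at 78.9, 79.8 and 78.8 in DMSO and 293, 303 and 289 in SAHA. The membrane protein gene EMP1 rose from 2.65 ± 0.524 to 10.5 ± 0.114. CALB2, the calcium-binding protein calretinin, rose from 1.85 ± 0.218 to 7.87 ± 0.0737, and NELL2, a secreted EGF-like repeat protein, rose from 1.53 ± 0.184 to 6.85 ± 0.0952. HLA-DRA is described with its family further on.

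Among the largest falls were genes of the acute phase and of lipid and prostaglandin handling. SUSD2, a membrane protein with a sushi domain, stood at 16, 17.7 and 16.6 in DMSO and 1.4, 1.7 and 1.91 in SAHA (log2 difference -2.74, SE 0.0702, limma adjusted p = 2.93e-11). SAA1, an acute phase apolipoprotein with a close copy in SAA2, stood at 9.23, 10.1 and 11.9 in DMSO and 0.854, 1.43 and 1.05 in SAHA. LCN2, a siderophore-binding lipocalin, stood at 7.02, 8.8 and 9.19 in DMSO and 2.08, 1.08 and 2.22 in SAHA. All SAHA libraries lay below all DMSO libraries for each of the 3 genes, as the choice of genes without overlap required. CEBPD, a C/EBP transcription factor of the acute phase, fell from 49.4 ± 0.66 to 14.5 ± 0.941, and the complement component gene C3 fell from 5.76 ± 0.358 to 1.38 ± 0.148. PTGES, the inducible prostaglandin E synthase, fell from 42.7 ± 1.39 to 16.5 ± 1.34. The retinal reductase gene DHRS3 fell from 6.82 ± 0.473 to 2.09 ± 0.305, the apolipoprotein gene APOC1 from 12 ± 0.753 to 4.43 ± 0.675 and the aspartic protease gene NAPSA from 4.04 ± 0.20 to 0.752 ± 0.0887. ARRDC3, an alpha-arrestin that binds surface receptors, gave 15.9, 16.7 and 16.1 in DMSO and 5.16, 5.08 and 4.98 in SAHA. The neuropeptide gene NPW fell from 6.16 ± 0.756 to 1.09 ± 0.453, the immediate early response gene IER5L from 13.7 ± 0.869 to 3.89 ± 0.437, the troponin gene TNNC1 from 13 ± 0.928 to 4.75 ± 0.261 and the matrix gene MATN2 from 11.3 ± 0.644 to 4.1 ± 0.339.

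BOLA2B is one of the largest falls but is uncertain. It has a near-identical copy, and its values were 74.4, 9.08 and 7.34 in DMSO and 5.13, 2.05 and 6.46 in SAHA. DMSO replicate 1 alone carried the high DMSO mean: the log2 difference was -1.83 with it and -0.82 without it. The limma adjusted p of 0.0258 became 0.1 without SAHA replicate 2, 0.0827 with no filter on low values and 0.123 with robust empirical Bayes. SMIM11A, the only 2-fold call whose groups overlapped, gave 1.23, 0.756 and 0.618 in DMSO and 7.59, 0.776 and 12.5 in SAHA, with SAHA replicate 2 inside the DMSO range.

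**Figure D2:**
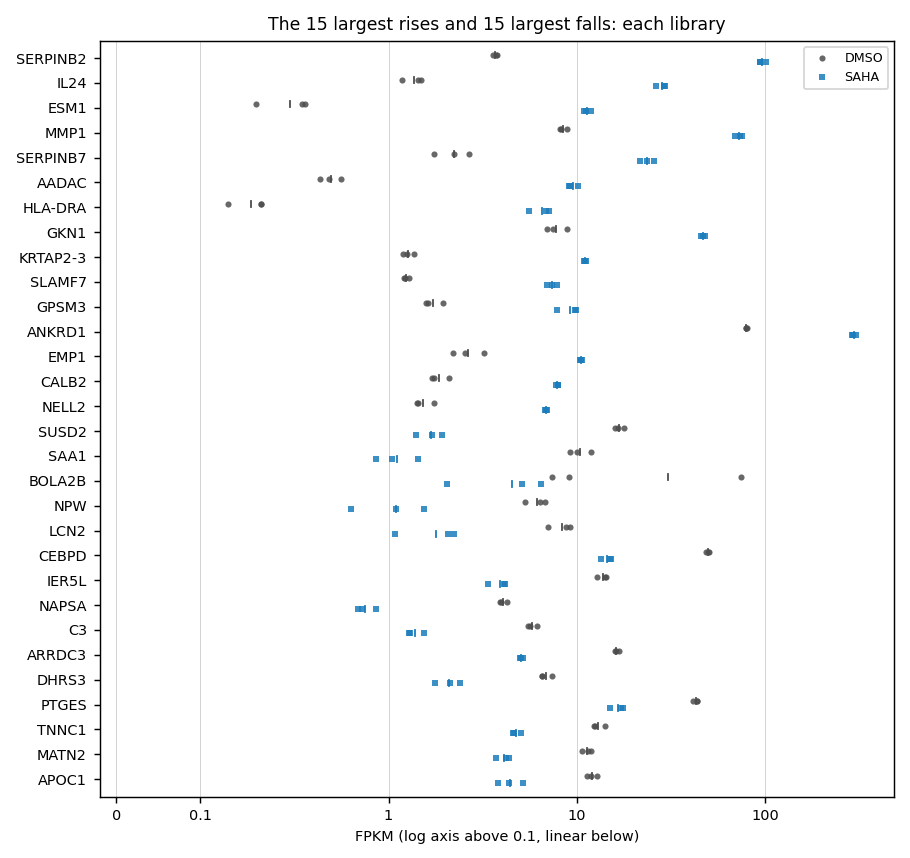
FPKM (horizontal axis, logarithmic above 0.1 and linear below) of the 15 largest rises and the 15 largest falls, 1 point per library, DMSO as grey circles and SAHA as blue squares, with a short vertical line at each group mean. The 2 groups are apart in every gene shown because genes were chosen among those without overlap. The DMSO mean of BOLA2B lies away from 2 of its 3 points because DMSO replicate 1 stands at 74.4.

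Of the 30 genes with the largest rises and falls, 19 had a RefSeq promoter. Printed are the 7 of them with an AP-1 or TATA match upstream of the start, chosen for those matches, and ARRDC3 as a fall without them. Each line gives the 250 bases upstream of the annotated start, 5′ to 3′ on the strand of the gene, from RefSeq on GRCh38.p14. Capitals mark matches on either strand to the AP-1 site TGANTCA, the TATA box TATAAA and the TEAD core GGAATG. Among the 19 genes, AP-1 matches are in 5, TATA matches in 3 and TEAD matches in 3, the last including GPSM3, which is not printed. SERPINB2, GKN1, ANKRD1, EMP1 and LCN2 hold an AP-1 match, SERPINB2, ESM1 and KRTAP2-3 hold a TATA match close to the start, and ANKRD1 and LCN2 hold TEAD matches. ARRDC3 has none of the 3 in this window.
SERPINB2, chr18:63887455-63887704, plus strand: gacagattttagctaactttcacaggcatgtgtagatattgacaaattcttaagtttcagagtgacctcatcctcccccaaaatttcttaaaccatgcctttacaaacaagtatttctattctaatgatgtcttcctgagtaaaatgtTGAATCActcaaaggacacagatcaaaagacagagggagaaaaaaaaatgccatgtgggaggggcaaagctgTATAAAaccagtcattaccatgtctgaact
GKN1, chr2:68974386-68974635, plus strand: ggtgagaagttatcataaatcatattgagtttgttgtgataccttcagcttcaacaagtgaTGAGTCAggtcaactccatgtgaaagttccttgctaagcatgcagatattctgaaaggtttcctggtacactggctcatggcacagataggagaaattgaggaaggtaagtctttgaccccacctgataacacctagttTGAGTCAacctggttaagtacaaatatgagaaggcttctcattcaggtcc
ANKRD1, chr10:90921088-90921337, minus strand: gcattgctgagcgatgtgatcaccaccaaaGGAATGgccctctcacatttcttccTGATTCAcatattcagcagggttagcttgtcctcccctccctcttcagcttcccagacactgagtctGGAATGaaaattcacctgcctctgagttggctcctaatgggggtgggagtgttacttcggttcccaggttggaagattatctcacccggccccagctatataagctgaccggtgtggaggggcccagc
EMP1, chr12:13196476-13196725, plus strand: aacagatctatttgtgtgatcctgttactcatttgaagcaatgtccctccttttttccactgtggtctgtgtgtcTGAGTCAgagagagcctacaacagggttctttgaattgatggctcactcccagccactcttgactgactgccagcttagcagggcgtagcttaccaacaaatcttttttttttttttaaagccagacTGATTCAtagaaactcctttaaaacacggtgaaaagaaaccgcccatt
KRTAP2-3, chr17:41060115-41060364, minus strand: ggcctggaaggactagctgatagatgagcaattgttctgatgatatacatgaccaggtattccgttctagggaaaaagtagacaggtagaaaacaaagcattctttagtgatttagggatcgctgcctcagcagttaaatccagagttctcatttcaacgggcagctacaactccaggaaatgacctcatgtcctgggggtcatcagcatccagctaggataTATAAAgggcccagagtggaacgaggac
ESM1, chr5:54985594-54985843, minus strand: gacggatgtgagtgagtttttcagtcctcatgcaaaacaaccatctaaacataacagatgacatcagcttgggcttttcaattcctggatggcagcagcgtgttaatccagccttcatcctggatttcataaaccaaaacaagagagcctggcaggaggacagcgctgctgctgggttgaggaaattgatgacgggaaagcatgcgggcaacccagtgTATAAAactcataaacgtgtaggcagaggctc
LCN2, chr9:128149203-128149452, plus strand: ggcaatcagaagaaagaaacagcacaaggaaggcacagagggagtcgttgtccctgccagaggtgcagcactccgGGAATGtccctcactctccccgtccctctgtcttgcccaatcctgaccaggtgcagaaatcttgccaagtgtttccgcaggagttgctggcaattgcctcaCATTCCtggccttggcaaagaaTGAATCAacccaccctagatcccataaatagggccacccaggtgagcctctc
ARRDC3, chr5:91383318-91383567, minus strand: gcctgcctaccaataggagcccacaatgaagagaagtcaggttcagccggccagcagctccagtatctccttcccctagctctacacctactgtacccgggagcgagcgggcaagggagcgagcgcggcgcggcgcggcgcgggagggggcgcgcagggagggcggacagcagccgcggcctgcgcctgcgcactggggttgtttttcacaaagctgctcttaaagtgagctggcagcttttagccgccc

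The AP-1 match of SERPINB2 begins 102 bases upstream of the start and its TATA match 30 bases upstream. In GKN1 AP-1 matches begin 189 and 50 bases upstream, and in EMP1 175 and 48 bases upstream. ANKRD1 has an AP-1 match 195 bases upstream and TEAD matches 220 and 128 bases upstream. TATA matches begin 32 bases upstream in ESM1 and 28 in KRTAP2-3. LCN2, which fell, has an AP-1 match 52 bases upstream, so these letters are not restricted to promoters of genes that rose.

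Over all kept genes 9528 had a RefSeq promoter, searched on both strands from 250 bases before the start to 50 after it. Among them were 65 of the 86 genes with a 2-fold rise and 29 of the 43 with a 2-fold fall. An AP-1 match was found in 13.8% of the promoters of rises (9 of 65), 3.45% of those of falls (1 of 29) and 4.18% of all. TATA matches were found in 21.5% of the rises (14 of 65), 10.3% of the falls (3 of 29) and 5.24% of all. TEAD matches were found in 23.1% (15 of 65), 3.45% (1 of 29) and 10.5%. The single fall with an AP-1 match and the single fall with a TEAD match are the same gene, LCN2. The GC box GGGCGG went the other way, at 47.7% of the rises, 75.9% of the falls and 72.6% of all. The E-box CACGTG was found in 3.08% of the rises (2 of 65), 13.8% of the falls (4 of 29) and 10.3% of all, and CCAAT in 43.1%, 41.4% and 37.0%. These shares describe letters in a window, without a test, and the TEAD core is short enough to occur often.

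SAHA libraries detected more genes than DMSO libraries. Between 15186 and 15238 genes were above 0 in SAHA and between 14910 and 14950 in DMSO, a mean difference of 283. The groups did not overlap, and the exact two-sided permutation test gave p = 0.1, the smallest that 3 libraries against 3 allow. There were 86 genes listed at 0 in all 3 DMSO libraries and above 0 in all 3 SAHA libraries, against 15 the other way. All were low, with a highest SAHA mean of 0.353 FPKM in the first class. Relative depth overlapped between the groups, at 0.898 to 1 of the deepest library in DMSO and 0.875 to 0.944 in SAHA, and its part in the count was not tested.

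From under 0.5 FPKM in every DMSO library, 20 genes rose to at least 1 in every SAHA library, and 4 went the opposite way. Besides ESM1 and HLA-DRA the first class held CD163L1, a scavenger receptor, at 0.342, 0.281 and 0.343 in DMSO and 2.89, 2.91 and 2.52 in SAHA. BEX5, a small protein of the BEX family, stood at 0.16, 0.118 and 0.266 in DMSO and 2.42, 2.49 and 2.15 in SAHA. The genes RTBDN and MPP4, both known from the retina, went from 0.374 ± 0.162 to 2.34 ± 0.311 and from 0.191 ± 0.0584 to 2.09 ± 0.253. The 4 genes of the opposite class were KRT4, VTN, CDHR1 and ALX4. KRT4, a keratin of stratified mucosa, stood at 1.31, 1.21 and 1.21 in DMSO and 0.103, 0.111 and 0.0772 in SAHA. VTN, the plasma and matrix protein vitronectin, fell from 1.5 ± 0.338 to 0.416 ± 0.0388, CDHR1, a photoreceptor cadherin, from 1.28 ± 0.207 to 0.362 ± 0.0696, and the homeobox gene ALX4 from 1.14 ± 0.056 to 0.419 ± 0.0498.

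Some genes of the zinc-dependent deacetylase family were themselves altered at the level of RNA. All 11 zinc-dependent deacetylase genes were kept; 5 rose, 4 fell and none met the 2-fold call, beside background shares of 27.4% and 31.4%. HDAC1, a class I enzyme and the most abundant of the family, stood at 61.3, 62.7 and 61.2 in DMSO and 80.1, 85.4 and 82.7 in SAHA (log2 difference 0.42, SE 0.0281, limma adjusted p = 1.12e-07). The other class I enzymes moved less. HDAC2 was at 15.7 ± 0.374 in DMSO and 14.8 ± 0.494 in SAHA and did not pass (limma adjusted p = 0.0611), although it passed without SAHA replicate 1 (0.0272). HDAC3, the NCOR enzyme, was at 26.9 ± 1.25 in DMSO and 27.8 ± 1.8 in SAHA (limma adjusted p = 0.393; 0.0454 without SAHA replicate 2). HDAC8 rose from 5.1, 4.17 and 4.48 to 5.36, 5.83 and 5.01, and its limma adjusted p of 0.0308 was lost without DMSO replicate 2 (0.126) or 3 (0.0796) and without SAHA replicate 1 (0.0591) or 2 (0.12).

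Class IIa enzymes, which shuttle between nucleus and cytoplasm, split. HDAC9 rose from 0.448, 0.448 and 0.445 in DMSO to 1.15, 1.14 and 1.21 in SAHA, the largest difference of the family (0.58), and it entered the kept genes through libraries other than DMSO. HDAC5 rose from 5.91, 6.2 and 6.32 to 8.98, 8.77 and 8.29. HDAC4 fell from 2.08, 2.04 and 2.0 to 1.31, 1.34 and 1.32, and HDAC7 fell from 13.4 ± 0.634 to 11.2 ± 0.496. None of these 4 had overlapping groups. HDAC6, the cytoplasmic tubulin deacetylase, fell from 6.76 ± 0.319 to 5.41 ± 0.259, and HDAC10, a polyamine deacetylase, from 6.87 ± 0.247 to 5.76 ± 0.675. HDAC11, the class IV enzyme, rose from 3.83 ± 0.177 to 4.54 ± 0.168. In the RefSeq annotation on GRCh38.p14, HDAC1 lies on chromosome 1 from 32292083 to 32333626 and HDAC9 on chromosome 7 from 18086825 to 19002416.

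**Figure D3:**
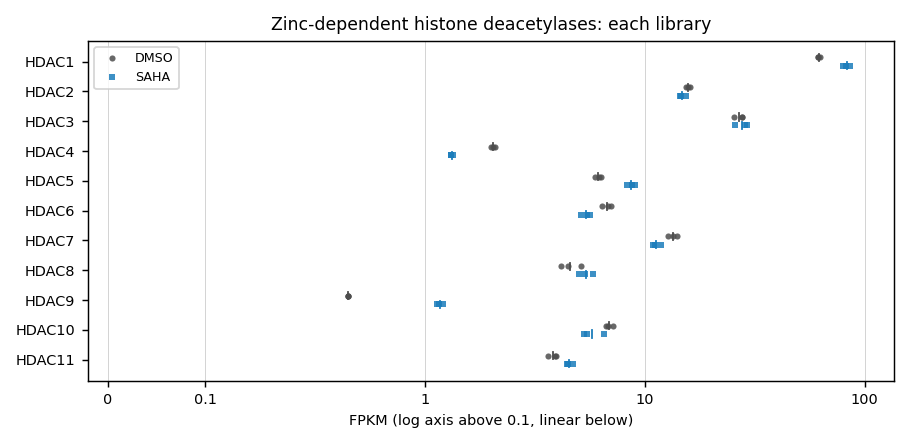
FPKM (horizontal axis, logarithmic above 0.1 and linear below) of the 11 zinc-dependent deacetylase genes in each DMSO library (grey circles) and SAHA library (blue squares), with a short vertical line at each group mean. HDAC1, HDAC5 and HDAC9 lie to the right in SAHA and HDAC4 to the left, while HDAC2 and HDAC3 lie close together in the 2 groups.

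Among the complexes that carry HDAC1, HDAC2 or HDAC3, NuRD genes fell most often. Of its 10 listed subunits 2 rose and 6 fell, with a median of -0.19 beside -0.01 over all genes; the count of rises was 1 in several alternatives, among them each fit without a DMSO library. CDK2AP1, a small NuRD subunit, stood at 88.3, 92.1 and 88.6 in DMSO and 57.5, 52.8 and 57.5 in SAHA. The remodelling ATPase gene CHD3 fell from 26.3 ± 0.474 to 18.3 ± 0.515, MTA3 from 7.36 ± 0.0571 to 5.79 ± 0.364 and the scaffold gene MBD3 from 30.0 ± 0.696 to 24.2 ± 0.203. SIN3 complex genes mostly did not pass, with 1 of 15 rising and 3 falling (median -0.04); without DMSO replicate 1 only 1 fell. SAP30 rose from 6.9 ± 0.662 to 8.8 ± 0.615, and the histone chaperone gene RBBP4 fell from 27.9 ± 0.228 to 22.6 ± 0.613. Of 14 CoREST and NCOR genes 4 rose and 5 fell (median 0.002). RCOR2, a CoREST scaffold, stood at 2.86, 2.5 and 2.23 in DMSO and 0.773, 0.813 and 0.851 in SAHA, the largest fall among the corepressor genes named here. TBL1X and TBL1XR1, exchange factors of NCOR, fell from 13.5 ± 0.151 to 9.6 ± 0.37 and from 17.4 ± 0.153 to 14 ± 0.308.

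Writers and readers of acetylation were lower more often than higher. No histone acetyltransferase gene rose and 6 of 10 fell (median -0.14), although 1 rose when replicate 1 of DMSO, or replicate 3 of H93 or of SAHA, was left out. KAT2A, the GCN5 enzyme of the SAGA complex, stood at 37.2, 36 and 36.5 in DMSO and 25.4, 23.4 and 24.9 in SAHA. CREBBP, the coactivator CBP, fell from 10.7 ± 0.168 to 8.4 ± 0.379, and KAT6B from 4.68 ± 0.102 to 3.33 ± 0.21. Of 16 bromodomain and YEATS reader genes 3 rose and 8 fell (median -0.07). BRDT, a BET protein normally found in the testis, rose from 7.48, 8.47 and 7.37 to 11.9, 10.4 and 11.3. BRD9 and BRD8, subunits of a SWI/SNF and of the NuA4 complex, fell from 10.8 ± 0.295 to 8.77 ± 0.564 and from 15.5 ± 0.152 to 12.8 ± 0.195. Of the 6 kept sirtuins 2 rose and 2 fell (median -0.13). SIRT2 rose from 10.1 ± 0.938 to 14.7 ± 0.859, and SIRT1 fell from 13.8 ± 0.50 to 9.7 ± 0.229.

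Heterochromatin genes were lower in 12 of 16 cases and higher in 1, with a median of -0.15. CBX5, which encodes HP1 alpha, the reader of methylated H3K9, stood at 12.8, 13.3 and 13.2 in DMSO and 6.62, 6.4 and 6.67 in SAHA (log2 difference -0.90, SE 0.0394, limma adjusted p = 2.79e-09). The 3 H3K9 methyltransferase genes with the next largest differences fell too. EHMT2, which encodes G9a, stood at 21.9, 22.8 and 22.6 in DMSO and 16.6, 15.6 and 16.5 in SAHA. SUV39H1 fell from 8.12 ± 0.416 to 5.86 ± 0.445, and SETDB1 from 12.2 ± 0.60 to 9.01 ± 0.349. Of the 14 kept DNA methylation genes 2 rose and 8 fell (median -0.12). UHRF1 stood at 51.9, 50.4 and 52.4 in DMSO and 38.9, 37.5 and 36.8 in SAHA, without overlap. DNMT3A, which methylates DNA de novo, fell from 3.81 ± 0.196 to 2.85 ± 0.165.

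Polycomb genes were closer to the background, with 6 of 25 rising and 5 falling (median -0.03). PHC1, a subunit of the repressive complex PRC1, rose from 5.22 ± 0.0113 to 7.29 ± 0.238 and CBX6 from 25.5 ± 0.986 to 31.2 ± 0.183, while PHF19, an accessory subunit of PRC2, fell from 21.1 ± 0.673 to 16 ± 0.636 and CBX8 from 3.79 ± 0.302 to 2.75 ± 0.355. Of 11 histone genes expressed outside S phase 2 rose and 5 fell (median -0.04). MACROH2A2, which encodes a macroH2A variant, stood at 36, 35.4 and 36.1 in DMSO and 23.1, 22.9 and 22.7 in SAHA. H2AZ2, an H2A.Z gene, rose from 47.3 ± 0.221 to 59.5 ± 1.95, and the linker histone gene H1-10 fell from 110.5 ± 2.58 to 92.9 ± 3.26.

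Textbook responders to this class of inhibitor gave a mixed picture. Of 11 genes often raised by deacetylase inhibitors, 10 were kept, of which 4 rose and 5 fell (median -0.06). CDKN1A stood at 20.2, 19.8 and 22.3 in DMSO and 62.5, 64.9 and 62.8 in SAHA (log2 difference 1.57, SE 0.0377, limma adjusted p = 1.8e-11). Its rise was not particular to SAHA, since H93 libraries stood higher still, at 80.0, 80.4 and 81.4. GSN, the actin-severing protein gelsolin, rose from 13.2 ± 0.457 to 19.8 ± 0.849, the metallothionein gene MT2A from 1269.5 ± 85.3 to 1949 ± 67.8 and the glutaredoxin gene GLRX from 16.1 ± 1.08 to 19.6 ± 0.955. Among the genes of the list that fell were H2BC21 (6.4 ± 0.0623 in DMSO and 3.38 ± 0.0829 in SAHA), the neuronal tubulin gene TUBB3 (60.6 ± 1.57 in DMSO and 43.8 ± 2.67 in SAHA), TXNIP (1.33 ± 0.0364 in DMSO and 0.834 ± 0.0328 in SAHA) and the chaperone gene CLU (57 ± 1.53 in DMSO and 45.5 ± 0.731 in SAHA). MT1X did not pass (limma adjusted p = 0.135; 0.0124 without DMSO replicate 2). DHRS2, the member left out by the filter, was under 1 FPKM in every library. Of 3 genes often lowered by inhibitors, TYMS, thymidylate synthase, fell from 190.3 ± 1.43 to 155 ± 1.27, CCND1, cyclin D1, rose from 116 ± 0.459 to 157 ± 0.749, and CTPS1 did not pass at 34.8 ± 0.636 in DMSO and 33.9 ± 0.549 in SAHA.

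Some gene families near these responders moved through single members. Of 7 kept (of 10 listed) metallothionein genes 3 rose and none fell. MT1A stood at 28.9, 26.4 and 26.8 in DMSO and 66.9, 68.5 and 70.1 in SAHA, and MT2A at 1365, 1200.1 and 1244 in DMSO and 1898, 2026 and 1923 in SAHA. These genes are close copies of each other and uncertain one by one. Of 13 tubulin genes 5 rose and 1 fell (median 0.06), and 2 fell without DMSO replicate 3. TUBA1A, an alpha-tubulin of neurons and dividing cells, stood at 20.1, 20.4 and 19.9 in DMSO and 51.5, 51.1 and 52.1 in SAHA, and TUBA4A rose from 20.8 ± 0.483 to 30.3 ± 1.0. Tubulin genes also share sequence. Chaperone genes fell more often than they rose, 12 against 4 of 26, with a median of -0.06. The mitochondrial chaperone genes HSPA9 and HSPD1 fell from 113 ± 1.52 to 88.8 ± 1.29 and from 287 ± 3.08 to 226 ± 9.32, and HSPB8, a small heat shock protein, rose from 2.82 ± 0.334 to 4.59 ± 0.353.

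Inhibitors of cyclin-dependent kinases did not move as a group: of 8 genes 3 rose and 4 fell (median -0.04). Beside CDKN1A, CDKN2D, an inhibitor of CDK4 and CDK6, rose from 5.22 ± 0.486 to 8.2 ± 0.33. CDKN1B, p27, stood at 24.7, 22 and 24.2 in DMSO and 16.5, 17.3 and 18.7 in SAHA, and CDKN1C, p57, fell from 1.9 ± 0.162 to 1.1 ± 0.253. Of 19 kept (of 20 listed) genes for G1 cyclins, their kinases and the RB and E2F families, 3 rose and 4 fell (median 0.002). CCND1 stood at 116, 117 and 116 in DMSO and 157, 157 and 156 in SAHA. Its partner gene CDK6 rose from 5.3 ± 0.103 to 7.45 ± 0.279 and CDK2 from 68.5 ± 1.4 to 82.8 ± 1.38, whereas E2F5 fell from 8.22 ± 0.353 to 6.23 ± 0.212.

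Genes that license and fire replication origins fell in 15 of 25 cases and rose in none, with a median of -0.16; 1 rose without DMSO replicate 3. MCM4, a subunit of the replicative helicase, stood at 108, 109 and 108 in DMSO and 79.9, 77.9 and 78.6 in SAHA. CDC45, which activates that helicase, fell from 29.6 ± 0.502 to 22.9 ± 0.886, and the origin recognition gene ORC1 from 14.5 ± 0.317 to 11.3 ± 0.348. Genes for nucleotide supply fell in 13 of 21 cases and rose in 2 (median -0.11). The thymidine kinase gene TK1 stood at 176, 183 and 178 in DMSO and 142, 143 and 144 in SAHA. The purine enzyme gene ATIC fell from 56.1 ± 0.525 to 43.7 ± 0.47, and the pyrimidine enzyme gene CAD from 31.7 ± 0.37 to 25.1 ± 0.533. Mitotic genes were lower in 12 of 32 cases and higher in 3 (median -0.05). CDC25B, a phosphatase that activates CDK1, fell from 33.9 ± 0.466 to 23.6 ± 0.891, and KIF20A, a kinesin of cytokinesis, from 64.6 ± 0.927 to 54.5 ± 1.25. In bulk samples, fewer cells of a type or stage and less RNA per cell cannot be told apart.

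Survival genes of both signs changed. Of 13 kept (of 16 listed) BCL2 family genes 8 rose and 4 fell (median 0.22). BCL2A1, an antiapoptotic member, stood at 2.98, 3.25 and 2.61 in DMSO and 6.77, 9.57 and 7.91 in SAHA, and PMAIP1, the BH3-only protein NOXA, at 13.4, 14 and 14.4 in DMSO and 27.2, 30.3 and 28.6 in SAHA. The BH3-only genes BID and BCL2L11 fell, BID from 25.5, 24.7 and 25 to 14.6, 14.3 and 14.4, and BCL2L11, which encodes BIM, from 2.15, 2.21 and 2.42 to 1.1, 1.12 and 1.05. Among 21 kept genes for caspases, death receptors and inhibitors of apoptosis 9 rose and 1 fell (median 0.12). The ubiquitin ligase genes BIRC3 and BIRC2 rose from 16.6 ± 0.296 to 25.1 ± 0.475 and from 26.1 ± 0.511 to 37.4 ± 1.34, and CASP10 rose from 1.68 ± 0.104 to 2.57 ± 0.106. TNFRSF1A, the TNF receptor, was the gene that fell, from 97.4 ± 0.616 to 69.7 ± 1.93.

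Feedback genes of the MAP kinase pathway mostly rose: of 14 kept (of 16 listed) DUSP, SPRY and SPRED genes 10 rose and 1 fell, with a median of 0.36. DUSP5, a nuclear ERK phosphatase, stood at 74.7, 72.9 and 75.1 in DMSO and 165, 165 and 165 in SAHA (log2 difference 1.14, SE 0.0225, limma adjusted p = 2.92e-12). SPRY4, an inhibitor of receptor tyrosine kinase signalling, stood at 3.52, 3.35 and 3.39 in DMSO and 7.55, 6.85 and 7.57 in SAHA. DUSP6, a cytoplasmic ERK phosphatase, rose from 13.6 ± 0.978 to 21.3 ± 0.271, and SPRED3 from 4.04 ± 0.266 to 7.53 ± 0.357. Of 9 kept (of 14 listed) genes for EGF ligands and receptors 5 rose and 3 fell (median 0.07). The ligand gene HBEGF stood at 10.9, 9.06 and 10.4 in DMSO and 23.4, 23.4 and 24.1 in SAHA, TGFA rose from 12 ± 0.353 to 15.9 ± 0.336, and the receptor gene ERBB2 fell from 23.2 ± 0.0772 to 18.3 ± 0.543. Of 12 kept (of 14 listed) AP-1 family genes 7 rose and 4 fell (median 0.14). JUN stood at 25.8, 25.3 and 26.8 in DMSO and 42.3, 40.9 and 42.1 in SAHA, ATF3 rose from 4.63 ± 0.20 to 7.97 ± 0.146, and MAFK, a small MAF factor, fell from 41.2 ± 1.16 to 28.4 ± 0.363. Of 10 kept (of 13 listed) immediate early genes 5 rose and 3 fell (median 0.10); beside IER5L the orphan receptor gene NR4A3 fell from 3.28 ± 0.098 to 1.81 ± 0.291, and IER5 rose from 10.7 ± 0.48 to 15.1 ± 0.256.

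Other pathways held members that moved in opposite directions. Among 18 YAP and TEAD genes 8 rose and 8 fell (median -0.03). The matricellular genes CCN2 and CCN1, like ANKRD1 known as YAP targets, rose as well. CCN2 stood at 47.7, 48.4 and 49.4 in DMSO and 83.5, 79.5 and 83.8 in SAHA, and CCN1 at 283, 287 and 286 in DMSO and 431, 430.0 and 443 in SAHA. TEAD4, the DNA-binding partner, fell from 21 ± 1.3 to 14.8 ± 0.956. Of 22 kept (of 28 listed) TGF-beta genes 6 rose and 3 fell (median 0.01). TGFBI, a secreted matrix protein induced by TGF-beta, stood at 64.2, 64.2 and 65.8 in DMSO and 33.4, 34.4 and 34.6 in SAHA, while the ubiquitin ligase gene SMURF2 stood at 13, 13.5 and 13.7 in DMSO and 25.3, 25.4 and 25.1 in SAHA. Of 24 kept (of 30 listed) WNT genes 7 rose and 10 fell (median -0.03). The ligand gene WNT7B fell from 21.8 ± 0.684 to 10.8 ± 0.178. DKK3, a secreted protein of the Dickkopf family, rose from 1.4 ± 0.172 to 2.84 ± 0.247, as did the transcription factor gene LEF1, from 0.289 ± 0.0561 to 1.01 ± 0.127. LEF1 passed the filter through libraries other than DMSO. Of 13 kept (of 22 listed) NOTCH genes 3 rose and 7 fell (median -0.17). The target gene HES1 fell from 2.11 ± 0.275 to 0.924 ± 0.238, the ligand gene JAG2 from 16.9 ± 0.264 to 10.9 ± 0.648 and the receptor gene NOTCH1 from 3.87 ± 0.288 to 2.64 ± 0.254.

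In the NF-kB list 7 of 17 genes rose and 4 fell, with a median of -0.004. TNFAIP3, the deubiquitinase A20 that ends NF-kB signalling, stood at 10.3, 10.3 and 10.6 in DMSO and 20.5, 20.0 and 20.1 in SAHA, and CYLD, another deubiquitinase, rose from 4.38 ± 0.31 to 7.97 ± 0.276. TNFAIP2 stood at 72.2, 74.9 and 74 in DMSO and 42.6, 40.6 and 40.6 in SAHA. Of 13 kept (of 15 listed) Krüppel-like factor genes 6 rose and 3 fell (median 0.14); KLF2 rose from 5.34 ± 0.305 to 8.18 ± 0.573, KLF4 from 4.56 ± 0.392 to 6.47 ± 0.669 and KLF6 from 36.7 ± 0.203 to 47.2 ± 0.864, and KLF11 fell from 4.49 ± 0.177 to 2.54 ± 0.181. Among alpha-arrestin genes 4 were kept, of which 3 fell and none rose, ARRDC3 and TXNIP with the largest falls. Genes for transcription factors of any named family, 518 in all, rose in 94 cases and fell in 203, with a median of -0.07. Of 25 homeobox genes 14 fell and 5 rose, and basic helix-loop-helix genes fell in 11 of 22 and rose in 5.

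Protease and adhesion genes held some of the widest changes. Of 13 clade B serpin genes 7 were kept, of which 4 rose and 3 fell (median 0.53), and 3 of the rises were past 2-fold. SERPINB5, maspin, stood at 0.552, 0.921 and 0.794 in DMSO and 3.65, 3.58 and 3.22 in SAHA and passed the filter through libraries other than DMSO. SERPINB8 rose from 3.57 ± 0.0903 to 5.58 ± 0.146. In the plasminogen activator system 6 of 8 kept (of 10 listed) genes rose and 1 fell (median 0.41). PLAU, urokinase, stood at 303, 303 and 304 in DMSO and 448, 458 and 455 in SAHA, and its receptor gene PLAUR at 43.5, 41.5 and 42.4 in DMSO and 66.3, 64.9 and 70.8 in SAHA. The tissue activator gene PLAT rose from 1.02 ± 0.155 to 2.1 ± 0.0989. Among 25 genes for metalloproteinases and their inhibitors 11 were kept, of which 7 rose and 4 fell (median 0.19); 13 were under 1 FPKM in all libraries. Beside MMP1, the stromelysin gene MMP10 rose from 0.172 ± 0.038 to 0.962 ± 0.0512 and passed the filter through libraries other than DMSO. The membrane-type protease gene MMP24 stood at 9.09, 8.42 and 8.38 in DMSO and 3.23, 3.08 and 3.21 in SAHA, and ADAMTS15 fell from 5.9 ± 0.132 to 3.05 ± 0.25.

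Integrin genes rose in 9 of 12 kept (of 20 listed) cases and fell in 3, with a median of 0.41. ITGA2, the collagen receptor subunit alpha 2, stood at 11.2, 11.6 and 11.9 in DMSO and 25.3, 25.3 and 24.2 in SAHA. ITGA1, another collagen receptor subunit, rose from 1.76 ± 0.192 to 4.16 ± 0.168, and the laminin receptor subunit gene ITGA7 from 1.64 ± 0.105 to 3.88 ± 0.164. ITGB2, the beta 2 subunit known from leukocytes, fell from 8.69 ± 0.214 to 5.77 ± 0.399. Of 15 kept (of 20 listed) laminin and basement membrane genes 6 rose and 5 fell (median 0.07). The laminin-332 chain gene LAMB3 stood at 146, 148 and 145 in DMSO and 252, 244 and 252 in SAHA. COL17A1, a hemidesmosomal collagen, rose from 1.6 ± 0.133 to 4.04 ± 0.126, and the nidogen gene NID2 from 4.28 ± 0.168 to 7.88 ± 0.395. Fibroblast markers were low. The 8 listed genes summed to 2.58 to 3.72 FPKM in DMSO and 4.08 to 7.12 in SAHA. COL1A2 stood at 0.235, 0.489 and 0.389 in DMSO and 0.358, 1.24 and 1.5 in SAHA, and LUM at 0, 0.0432 and 0.136 in DMSO and 0.165, 0.71 and 0.887 in SAHA, so that SAHA replicates 2 and 3 were high for both genes while SAHA replicate 1 lay within the DMSO range for COL1A2. COL1A1 was the only one of the 8 kept, and it rose from 2.24 ± 0.301 to 3.25 ± 0.359. Their part in the matrix results was not tested.

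Epithelial genes changed without a shared direction. Of 9 kept (of 23 listed) keratin genes 5 rose and 3 fell (median 0.08). KRT19, a keratin of simple epithelia, stood at 169.9, 168 and 171 in DMSO and 322, 318 and 339 in SAHA, and KRT15, known from basal cells, at 2.91, 2.75 and 2.84 in DMSO and 7.2, 7.22 and 7.66 in SAHA. Of 26 kept (of 29 listed) junction genes 8 rose and 10 fell (median -0.02). CDH1, E-cadherin, stood at 13.3, 13.3 and 13.4 in DMSO and 4.88, 5.27 and 5.13 in SAHA (log2 difference -1.23, SE 0.0487, limma adjusted p = 1.07e-09). The desmosomal plaque gene PKP3 fell from 22.3 ± 0.789 to 12.1 ± 0.752, the claudin gene CLDN4 from 3.67 ± 0.47 to 2.04 ± 0.266 and periplakin, PPL, from 4.7 ± 0.0978 to 2.72 ± 0.0571. Epithelial identity genes fell in 6 of 12 kept (of 19 listed) cases and rose in 3 (median -0.12). EPCAM, the epithelial adhesion molecule, stood at 66.1, 67.7 and 67.6 in DMSO and 39.4, 38.3 and 35.7 in SAHA. The ETS factor gene ELF3 fell from 12.6 ± 0.586 to 7.42 ± 0.383, the membrane protease gene ST14 from 9.28 ± 0.346 to 5.46 ± 0.411 and the splicing regulator gene ESRP2 from 8.53 ± 0.181 to 6.11 ± 0.394.

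Of 10 kept (of 16 listed) genes linked to a mesenchymal state 4 rose and 4 fell (median -0.002). FN1, fibronectin, stood at 6.22, 6.96 and 6.02 in DMSO and 13.6, 14.6 and 14.1 in SAHA, and VIM, vimentin, at 529, 540.4 and 540.4 in DMSO and 811, 794 and 821 in SAHA. The repressor gene SNAI2 rose from 1.09 ± 0.107 to 2.23 ± 0.311, while COL6A1, a collagen VI chain, fell from 37.4 ± 0.688 to 21 ± 1.14. Vimentin and keratins 8 and 18 were abundant in both groups. Of 8 kept (of 15 listed) S100 genes 2 rose and 3 fell (median 0.02); S100A16 rose from 150.4 ± 2.17 to 236 ± 7.22 and S100A11 from 464 ± 8.07 to 542 ± 16.2.

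Genes of the HLA class II pathway, which present peptides to helper T cells and are normally expressed by antigen-presenting cells, were higher in SAHA. Of 12 listed genes 8 were kept and all 8 rose, but HLA-DRA and HLA-DPA1 were under 1 FPKM in DMSO and passed the filter through other libraries, so the count is a description only. HLA-DRA, the alpha chain of HLA-DR, stood at 0.21, 0.14 and 0.21 in DMSO and 7.12, 5.56 and 6.83 in SAHA. HLA-DRB1 stood at 5.34, 5.14 and 5.14 in DMSO and 14.1, 14.1 and 14.5 in SAHA. HLA-DMA, which loads peptides, stood at 6.12, 6.87 and 6.75 in DMSO and 16, 16.2 and 17.1 in SAHA, and HLA-DQB1 rose from 2.23 ± 0.439 to 7.74 ± 0.246. Chosen after their values were seen, HLA-DMB rose from 4.61 ± 0.505 to 10.9 ± 0.994, HLA-DPA1 from 0.427 ± 0.0712 to 1.69 ± 0.279, HLA-DRB5 from 1.25 ± 0.271 to 3.04 ± 0.273 and the invariant chain gene CD74 from 1.08 ± 0.174 to 1.92 ± 0.207. Of the 4 genes left out, HLA-DPB1 stood at 0.091, 0.0868 and 0.0651 in DMSO and 1.12, 0.92 and 0.994 in SAHA, HLA-DQA1 was listed at 0 in DMSO and at 0.0627, 0.135 and 0.22 in SAHA, and HLA-DOA stayed under 1. CIITA, the master activator of this pathway, was at 0.0106, 0.00885 and 0.0266 in DMSO and 0.0225, 0.00909 and 0.0197 in SAHA. HLA genes share sequence and are uncertain one by one.

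Leukocyte markers were measured beside these values. PTPRC, the common leukocyte antigen, was listed at 0 in DMSO and reached at most 0.00935 in SAHA, CD3D was listed at 0 in all 6 libraries, and CSF1R was at 0.101, 0.0561 and 0.0126 in DMSO and 0.0134, 0.0288 and 0.0134 in SAHA. CD14, a monocyte marker, was at 0.577, 0.567 and 0.578 in DMSO and 0.756, 1.12 and 0.541 in SAHA. CD68, a lysosomal protein of macrophages that many other cells also express, was the only leukocyte marker kept, and it rose from 22.4 ± 0.341 to 33.4 ± 1.75; the 5 leukocyte markers analysed, of 9 listed, summed to 22.7 to 23.4 in DMSO and 32.7 to 35.5 in SAHA. Their part in the class II values was not tested.

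Class I genes rose in 9 of 16 kept (of 19 listed) cases and fell in 6 (median 0.24). HLA-B stood at 70.2, 73.5 and 69.8 in DMSO and 127, 129 and 134 in SAHA, and the light chain gene B2M at 325, 324 and 314 in DMSO and 469, 487 and 473 in SAHA. HLA-C rose from 101 ± 3.36 to 144 ± 4.1, and PSMB10, an immunoproteasome subunit, fell from 12.4 ± 1.12 to 7.77 ± 0.451. Among ligands and receptors that tumour cells show to immune cells, 11 of 16 kept (of 21 listed) genes rose and 2 fell (median 0.21). CD274, which encodes PD-L1, stood at 5.45, 5.73 and 5.22 in DMSO and 16.4, 15 and 13.5 in SAHA (log2 difference 1.30, SE 0.0562, limma adjusted p = 2.45e-09). The hyaluronan receptor gene CD44 rose from 21.6 ± 0.677 to 36.4 ± 1.32, and ULBP2, a ligand of the natural killer receptor NKG2D, from 3.67 ± 0.41 to 6.66 ± 0.788.

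Interleukin and chemokine genes rose in 11 of 16 kept (of 29 listed) cases and fell in 4 (median 0.53); 11 further genes of the list were under 1 FPKM in all libraries. Beside IL24, the neutrophil chemokine gene CXCL8 stood at 47.3, 48 and 47.8 in DMSO and 97.9, 102 and 100.1 in SAHA. CCL20, a chemokine for dendritic and T cells, rose from 4.7 ± 0.558 to 11.3 ± 1.01, and IL18 from 47.1 ± 0.0684 to 81.3 ± 0.965. Interferon response genes went the other way in the count: 10 of 18 kept (of 31 listed) genes fell and 4 rose (median -0.20). IFIT3, an antiviral effector, stood at 1.97, 1.77 and 1.91 in DMSO and 0.484, 0.386 and 0.591 in SAHA, IFIT2 fell from 1.25 ± 0.141 to 0.482 ± 0.0416, and OASL from 2.84 ± 0.265 to 1.57 ± 0.178. IRF7, the transcription factor of this response, fell from 2.87 ± 0.42 to 1.23 ± 0.338. Of 13 kept (of 26 listed) C/EBP, acute phase and complement genes 4 rose and 5 fell (median -0.05), and the 4 2-fold falls were SAA1, LCN2, CEBPD and C3.

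Genes of fatty acid and cholesterol synthesis fell more often than they rose, while sterol efflux genes were nearly even. Of 17 kept (of 18 listed) fatty acid synthesis genes 3 rose and 11 fell (median -0.23). SREBF1, the transcription factor that drives this pathway, stood at 13.1, 14.5 and 13.3 in DMSO and 5.84, 5.44 and 5.21 in SAHA. Fatty acid synthase, FASN, stood at 63.5, 68.1 and 64.6 in DMSO and 40.1, 35.8 and 36.9 in SAHA. The desaturase gene SCD fell from 151 ± 1.78 to 86.1 ± 1.59, and the carboxylase gene ACACA from 16.5 ± 0.291 to 10.3 ± 0.528. Of 26 kept (of 27 listed) cholesterol synthesis genes 5 rose and 13 fell (median -0.10). INSIG1, which holds the SREBP complex in the endoplasmic reticulum, fell from 11.1 ± 0.702 to 6.14 ± 0.307, the mevalonate pathway gene MVD from 31.6 ± 0.851 to 21.5 ± 0.48 and the cyclase gene LSS from 23.8 ± 0.442 to 17.5 ± 0.277. Of 8 kept (of 10 listed) sterol efflux genes 4 rose and 3 fell (median 0.03). The neighbouring apolipoprotein genes APOE and APOC1 moved in opposite directions: APOE stood at 5.78, 5.17 and 5.47 in DMSO and 16, 16.9 and 14.8 in SAHA, and APOC1 at 12.8, 11.8 and 11.3 in DMSO and 4.33, 3.81 and 5.15 in SAHA. RefSeq places APOE on chromosome 19 from 44905796 to 44909393 and APOC1 on chromosome 19 from 44914325 to 44919346 on GRCh38.p14. NPC2, a cholesterol carrier of the lysosome, rose from 68.8 ± 2.01 to 125 ± 2.6.

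NRF2 pathway genes fell in 17 of 23 kept (of 25 listed) cases and rose in 3, with a median of -0.29. ABCC3, an organic anion exporter, stood at 12.3, 12.9 and 12.7 in DMSO and 7.02, 6.11 and 6.54 in SAHA. KEAP1, which targets NRF2 for degradation, stood at 21.1, 21.9 and 22.3 in DMSO and 12.5, 11.3 and 11.5 in SAHA, so the list held falls of both the inhibitor and the targets. UGDH fell from 71.4 ± 1.67 to 44.5 ± 0.752, and OSGIN1 from 22.3 ± 1.16 to 14.1 ± 0.263. Of 5 kept (of 11 listed) aldo-keto reductase genes AKR1C3, which makes androgens and prostaglandins and has close paralogues, rose from 1.69 ± 0.239 to 6.3 ± 0.474. Integrated stress response genes fell in 11 of 23 kept (of 24 listed) cases and rose in 5 (median -0.07). DDIT4, an inhibitor of mTORC1, stood at 69.3, 66.6 and 68.4 in DMSO and 33.3, 32 and 33.3 in SAHA, the amino acid transporter gene SLC7A5 fell from 106 ± 0.666 to 68.1 ± 3.0, and PPP1R15A, which restores translation, rose from 19.6 ± 1.18 to 32.7 ± 1.31. Of 20 aminoacyl-tRNA synthetase genes 2 rose and 14 fell (median -0.18), all within -0.31 to 0.21 on the log2 scale, with QARS1 falling from 80.0 ± 0.917 to 64.2 ± 1.3.

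Citrate cycle genes fell more often than they rose, and glycolysis and hypoxia genes changed in both directions. Of 24 glycolysis genes 8 rose and 9 fell (median -0.03). GPI, glucose-6-phosphate isomerase, fell from 65.2 ± 0.16 to 45.1 ± 1.55, HK1, hexokinase 1, rose from 45.4 ± 0.634 to 62.7 ± 1.47, and the neuronal glucose transporter gene SLC2A3 rose from 0.814 ± 0.055 to 1.56 ± 0.129. SLC2A3 passed the filter through libraries other than DMSO. Of 24 citrate cycle genes 6 rose and 12 fell (median -0.08), with IDH1 falling from 33.4 ± 0.975 to 26 ± 1.09. Of 21 kept (of 22 listed) hypoxia genes 8 rose and 7 fell (median -0.04). EPAS1, which encodes HIF-2 alpha, stood at 18.4, 17.9 and 17.8 in DMSO and 8.56, 8.21 and 9.55 in SAHA, and the angiogenic factor gene VEGFA fell from 57.2 ± 0.432 to 37.5 ± 0.662, whereas LOX, lysyl oxidase, rose from 2.26 ± 0.264 to 4.68 ± 0.328. Of 10 kept (of 23 listed) retinoid genes 4 rose and 4 fell (median -0.02). CRABP2, a retinoic acid carrier, rose from 37.4 ± 3.28 to 64.1 ± 0.305, the receptor gene RARG fell from 21.8 ± 0.58 to 14.4 ± 0.681, and the dehydrogenase gene ALDH1A3 from 19.6 ± 1.12 to 13.3 ± 0.109.

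Degradation pathways differed in their counts. Autophagy genes rose in 15 of 25 kept (of 26 listed) cases and fell in 3, with a median of 0.20. MAP1LC3B, which coats the autophagosome, stood at 55.5, 54.6 and 54.9 in DMSO and 84.7, 84.5 and 83.1 in SAHA. The receptor gene OPTN rose from 22.8 ± 0.48 to 37.5 ± 1.94, and the phosphoinositide effector gene WIPI1 from 2.29 ± 0.123 to 4.29 ± 0.311. Lysosome genes were even, with 11 of 29 rising and 11 falling (median 0.01); LAMP2 rose from 12.4 ± 0.252 to 17.8 ± 0.419, CD63 from 152 ± 2.34 to 212 ± 3.88, and the protease gene CTSD fell from 148 ± 3.34 to 109 ± 2.81. Of 34 proteasome genes 9 rose and 5 fell (median 0.01), and under quantile normalization 9 fell. PSMB8, an immunoproteasome subunit, rose from 3.85 ± 0.401 to 5.55 ± 0.141, and PSMD2 from 264 ± 3.57 to 320.5 ± 4.98. Unfolded protein response genes rose in 10 of 20 cases and fell in 6 (median 0.08), all within -0.32 to 0.35; the cochaperone gene DNAJB9 rose from 4.25 ± 0.388 to 5.7 ± 0.36 and the sensor gene ERN1 from 2.3 ± 0.149 to 3.1 ± 0.059. Of 32 genes for ribosome biogenesis 20 fell and 1 rose (median -0.11). UTP20, a processome component, stood at 20.4, 21.3 and 20.2 in DMSO and 14.9, 14.8 and 14.2 in SAHA, and BOP1 fell from 65.5 ± 1.92 to 50.8 ± 0.675.

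The repressor REST keeps neuronal genes silent in other tissues together with deacetylases. Of 27 listed genes 25 were analysed and 12 were kept, of which 6 rose and 4 fell (median 0.22), while 11 were under 1 FPKM in all libraries. L1CAM, a neural adhesion molecule, stood at 1.49, 1.58 and 1.35 in DMSO and 4.74, 4.57 and 4.82 in SAHA. VGF, a secreted neuropeptide precursor, stood at 1.2, 1.6 and 1.46 in DMSO and 4.43, 4.16 and 4.96 in SAHA, and INA, the neurofilament protein alpha-internexin, at 5.81, 5.88 and 5.83 in DMSO and 12.9, 12.5 and 13.6 in SAHA. STMN3 fell from 2.6 ± 0.371 to 1.54 ± 0.104. Neuroendocrine markers gave little signal: CHGB was listed at 0 in DMSO and SAHA, CHGA stood at 0, 0.024 and 0 in DMSO and 0, 0.0493 and 0 in SAHA, and ENO2 was the only one kept, rising from 16.6 ± 0.396 to 20.9 ± 0.694. Cancer-testis genes were mostly silent, with 5 of the 7 analysed, of 20 listed, under 1 FPKM in every library; beside BRDT, PRAME stood at 11.8 ± 0.541 in DMSO and 12.5 ± 0.58 in SAHA and did not pass. The 6 endothelial markers all stayed under 1 FPKM.

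**Figure D4:**
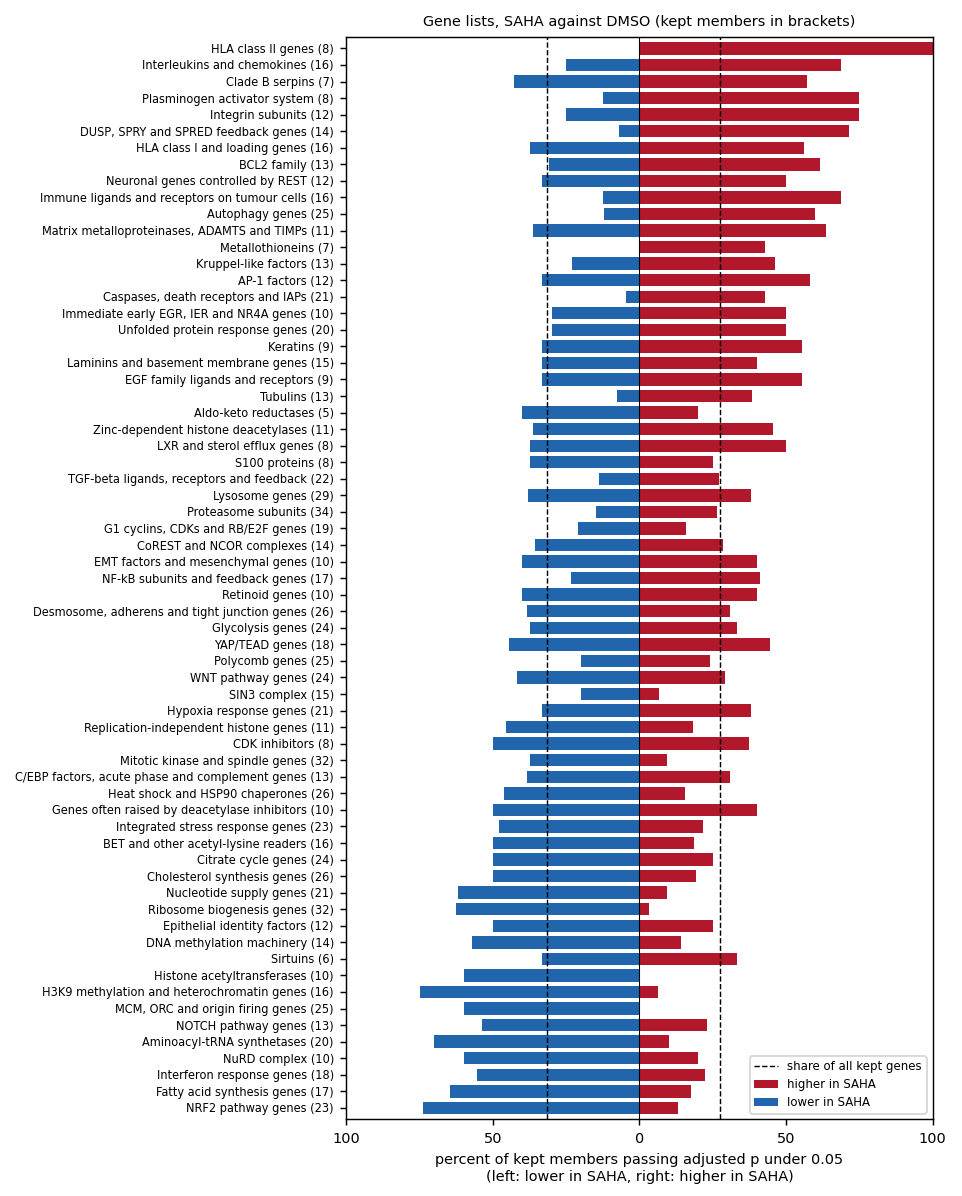
Percent of the kept members of each gene list that passed an adjusted p of 0.05, with genes higher in SAHA to the right and genes lower in SAHA to the left, for lists with at least 5 kept members, ordered by median log2 difference from the highest at the top. Dashed lines give the shares over all kept genes, 27.4% higher and 31.4% lower; HLA class II, integrin, plasminogen activator and DUSP, SPRY and SPRED genes lie to the right of the line, and NRF2, heterochromatin and aminoacyl-tRNA synthetase genes to the left.

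SAHA and H93 were compared directly, since each against DMSO shares the same control libraries. Of 11525 genes 3629 passed (31.5%), 1598 higher in SAHA (13.9%) and 2031 lower (17.6%), and 2 genes met the 2-fold call (0.0174%), 1 in each direction (0.00868%). The SAHA and H93 libraries did not overlap for 44.4% of genes. Pearson correlations of log2 values were 0.9951 to 0.9954 between SAHA and H93. Each of the 15 largest rises against DMSO also had a higher mean in H93 than in DMSO. Each of the 15 largest falls had a lower one, although BOLA2B did not pass there (limma adjusted p = 0.078). These genes were chosen by their distance from the same DMSO libraries, which favours a shared direction. In H93, SERPINB2 was at 126 ± 3.36, IL24 at 35.9 ± 0.792 and SUSD2 at 0.9 ± 0.0934. The compounds differ in dose and the labels give 1 dose each, so the values describe these doses only. KRTAP2-3, the 2-fold call lower in SAHA, stood at 10.9, 11.2 and 11.1 in SAHA and 32.8, 30.5 and 30.3 in H93 (log2 difference -1.42, SE 0.0436, limma adjusted p = 2.38e-09). ESM1 stood at 10.9, 11.8 and 11.2 in SAHA and 22.3, 22.9 and 21.9 in H93 (log2 difference -0.92, SE 0.0533, limma adjusted p = 1.66e-06), and ANKRD1 at 293, 303 and 289 in SAHA and 518, 522 and 507 in H93 (log2 difference -0.80, SE 0.0228, limma adjusted p = 1.85e-09). BEX5 stood at 2.42, 2.49 and 2.15 in SAHA and 4.33, 5.71 and 5.0 in H93. In these 4 genes DMSO was lowest, SAHA in between and H93 highest, with no overlap between any groups.

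Of the 8 genes named as highest in SAHA relative to H93, 6 were at their highest in DMSO. The claudin gene CLDN4 stood at 3.85, 3.13 and 4.01 in DMSO, 1.85, 1.92 and 2.34 in SAHA and 0.95, 0.972 and 0.752 in H93 (log2 difference 0.68, SE 0.0855, limma adjusted p = 0.000188). TNNC1 stood at 4.64, 4.57 and 5.05 in SAHA and 2.67, 2.65 and 3.06 in H93, below 13 ± 0.928 in DMSO, and the same order held for the orphan receptor gene GPR27 (4.23 ± 0.069 in SAHA and 2.47 ± 0.34 in H93), the decoy receptor gene TNFRSF6B (7.14 ± 0.136 and 4.5 ± 0.305), PDZK1IP1 (1.3 ± 0.246 and 0.536 ± 0.312) and ITGB2 (5.77 ± 0.399 and 3.6 ± 0.289). Replication-dependent histone genes were among those lower in SAHA. H3C10 stood at 5.87, 4.63 and 5.56 in DMSO, 3.96, 2.8 and 3.29 in SAHA and 5.49, 5.84 and 7.07 in H93. H4C12 stood at 0.804, 1.34 and 0.671 in DMSO, 0.71, 1.07 and 0.854 in SAHA and 2.01, 1.61 and 2.15 in H93. In the direct test H4C12 differed (log2 difference -0.64, SE 0.119, limma adjusted p = 0.00207). Outside H93 only DMSO replicate 2 and SAHA replicate 2 reached 1 FPKM for H4C12. It passed the filter through H93, so its adjusted p is a description. Transcripts of replication-dependent histones normally end without a poly(A) tail, and per the labels' protocols the libraries were made with an mRNA kit.

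The calls of 4 of the 16 genes named for this contrast were lost when single libraries were left out. SMIM11A and LOC105372440 had fewer than 3 libraries at 1 FPKM or more outside SAHA. Both passed the filter through SAHA, so their adjusted p-values are descriptions. SMIM11A, the 2-fold call higher in SAHA, stood at 7.59, 0.776 and 12.5 in SAHA and 1.32, 0.947 and 0.594 in H93, with SAHA replicate 2 inside the H93 range, and its log2 difference of 1.61 was 1.02 without SAHA replicate 3 and 2.48 without SAHA replicate 2. The limma adjusted p of 0.0355 was 0.112 and 0.14 without SAHA replicates 1 and 3, and 0.0587, 0.0767 and 0.0975 without H93 replicates 1, 2 and 3. EIF3C, an initiation factor with a near-identical copy, stood at 13, 17.9 and 16.8 in SAHA and 15.9, 32.2 and 33.1 in H93, and its limma adjusted p of 0.0377 was 0.122 without SAHA replicate 1, 0.0701 without SAHA replicate 3 and 0.137 and 0.139 without H93 replicates 2 and 3. For H2AW, which stood at 0.862, 2.09 and 2.7 in SAHA and 3.92, 3.01 and 3.58 in H93, the limma adjusted p of 0.0339 was 0.11 without SAHA replicate 1, where the log2 difference went from -0.70 to -0.41, and 0.0997 and 0.0799 without H93 replicates 1 and 3. For LOC105372440, at 1.45, 2.35 and 1.46 in SAHA and 1.22, 0.25 and 0.732 in H93, the value of 0.0298 was 0.11 without SAHA replicate 2, and 0.117 and 0.0613 without H93 replicates 2 and 3 (limma adjusted p). Of the targets of SAHA, HDAC1 was at 82.7 ± 2.63 in SAHA and 82 ± 1.91 in H93, and HDAC6 at 5.41 ± 0.259 in SAHA and 4.66 ± 0.25 in H93.

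**Figure D5:**
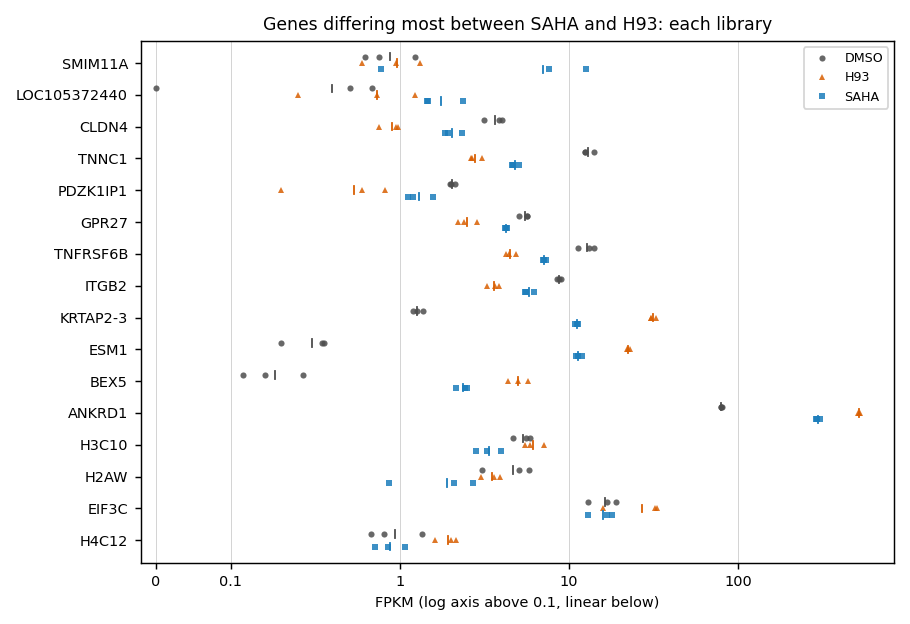
FPKM (horizontal axis, logarithmic above 0.1 and linear below) of the 8 genes highest and the 8 lowest in SAHA relative to H93, 1 point per library, for DMSO (grey circles), H93 (orange triangles) and SAHA (blue squares), with a short vertical line at each group mean. KRTAP2-3, ESM1, BEX5 and ANKRD1 run from DMSO through SAHA to H93, and the SAHA points of SMIM11A are split between 0.776 in replicate 2 and 7.59 and 12.5 in the others.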

How the data were processed

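RNA of DU145 cells was extracted with TRIzol and made into stranded mRNA libraries, per the labels' protocols. The authors deposited 1 table of FPKM values per gene and library, and the submitters' processing notes name Cufflinks, HISAT2, Trimmomatic 0.36 and GRCh38.p13 without roles. Which annotation was used, and whether counting used strand, is not given in the sources used here. Columns were matched to samples by name, and 0 value columns were left unused. Depth in reads was unknown, so no counting interval is given.

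Genes with at least 1 FPKM in at least 3 of 9 libraries were tested as log2(FPKM + 1) with limma 3.58.1 in R 4.3.3, by group means over all 9 libraries with a trended empirical Bayes prior (6 residual and 6.05 prior degrees of freedom), so that H93 libraries contributed to the spread. A pseudocount of 1 understates changes of low genes. The script was tested on simulated data. Tables and plots used Python 3.11.15, pandas 2.3.3, numpy 2.4.6 and matplotlib 3.10.9. Gene positions and promoters came from RefSeq on GRCh38.p14, and 16725 genes matched by Entrez identifier.

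The comparison, its members and the 68 gene lists and 6 marker lists were chosen with earlier results of these data known. Genes named were the deacetylases and UHRF1, the 15 largest rises and 15 largest falls among 2-fold calls without overlap, up to 4 members of each list with the largest difference and every member of the 2 lists of inhibitor responders, up to 6 genes in each class near 0, the 8 highest and 8 lowest against H93, and genes beside each threshold; others are said to be chosen after their values were seen, or are cell type markers. Alternatives were other pseudocounts, filters, scalings and priors, a replicate block, only the 6 libraries compared, and each library left out. Some genes covered by this rule are not reported here.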

Additional observations from a re-analysis of the deposited data

How the results depend on the processing

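The number of genes past 2-fold between SAHA and DMSO depended on the pseudocount and the filter: instead of 129 genes (86 higher, 43 lower) there were 292 (201 higher, 91 lower) with a pseudocount of 0.1, 30 (21 higher, 9 lower) with a pseudocount of 5, and 78 (56 higher, 22 lower) among the 8041 genes with a mean of at least 5 FPKM. When 1 library was left out the number lay between 126 and 139, with 84 to 94 higher and 42 to 45 lower, and the number passing the limma adjusted p between 6175 and 6773, with 2895 to 3142 higher and 3280 to 3631 lower. Over all settings the number passing ran from 5112 of 8041 genes (mean of at least 5 FPKM) to 7214 of 16772 (no filter). These ends rest on different sets of genes. Between SAHA and H93 the 2 genes past 2-fold became 8 (4 higher, 4 lower) with a pseudocount of 0.1, and 1 (0 higher, 1 lower) with a pseudocount of 5, with no filter, with a mean of at least 5 FPKM, with robust empirical Bayes and with only the 6 libraries compared. Without 1 library they numbered 1 to 3 (0 to 1 higher, 1 to 2 lower), and 2794 to 3554 genes passed. Rescaling by median ratios gave 3374 genes higher and 3371 lower in SAHA, against 46.6% of passing genes higher as reported and 44.0% with a fixed sum per library. Of 317 results for single genes, 10 lost and 6 gained a call in at least 1 setting, and none was called with the opposite sign. Same-numbered DMSO and SAHA libraries did not deviate together (correlations of -0.0975, -0.0156 and -0.0231). No pairing by number was seen, although a small shared effect could be missed in this way. With the replicate block 6649 genes passed (3096 higher, 3553 lower), 129 of them past 2-fold (86 higher, 43 lower), and between SAHA and H93 3426 passed (1527 higher, 1899 lower). Absolute depth is unknown, so how far low values are limited by counting could not be read from the table.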
